A study of Homo sapiens with 6 samples.

Results

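The S100 genes described here are S100A4, S100A6, S100A8, S100A9, S100A10, S100A11, S100A12 and S100A13, which were chosen by gene symbol. All 8 were found by Ensembl identifier among the 78686 genes of the deposited tables. The cells were THP-1, a line from a human monocytic leukaemia, in which poly(A) RNA was sequenced after stable transduction with a PTX4 overexpression construct (PTX4-OE, 3 libraries) or with an empty vector (EV, 3 libraries). The biological replicates are numbered 1 to 3 in both conditions, with no further treatment in the labels, and the labels give 1 batch for all 6. The labels name no promoter for the construct and do not say whether either line was 1 clone or a pool. The comparison asks which transcripts differ when PTX4, which encodes the soluble pattern recognition protein pentraxin 4, is overexpressed.

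S100 proteins are small calcium sensors with paired EF-hand loops, which mostly act as dimers. Most of their genes lie in a cluster on the long arm of chromosome 1, within the epidermal differentiation complex. S100A8 and S100A9 form calprotectin, which binds calcium, zinc and manganese and is among the most abundant cytosolic proteins of blood neutrophils and monocytes. S100A12 is a further protein of neutrophil and monocyte cytosol, and these proteins act as alarm signals once outside the cell. S100A4, S100A6, S100A10, S100A11 and S100A13 are expressed in many cell types and bind annexins, myosin or growth factors.

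Total expected counts per library ran from 31078642 to 37718207 in PTX4-OE and from 29670641 to 32691577 in EV. PTX4 itself had 24633, 14398 and 15782 expected counts in PTX4-OE replicates 1, 2 and 3, against 0, 3 and 4 in EV replicates 1, 2 and 3, as the labels state. Of 12 markers of a monocytic line, 11 stood at 1 TPM (a length-scaled share of all transcripts) or more in every library, and their sum was 3401 to 3494 TPM in PTX4-OE and 3344 to 3436 TPM in EV. CD4 was the marker below 1 TPM. With replicate number as a block, as described below, 2 of the 11 tested markers fell, where 0.232% of all genes did. They were MPO, which encodes myeloperoxidase (-0.54 on the log2 scale, SE 0.079, adjusted p = 0.0086 by edgeR), and CSF1R, the receptor for M-CSF (-0.30, SE 0.056, adjusted p = 0.0424 by edgeR). Neither was called without blocks. The marker list was chosen with earlier results of these data known, so its share is not independent of them. With blocks MPO was not called without replicate 2 or on log2(TPM + 1), and CSF1R not by DESeq2, without replicate 1, without replicate 2 or on log2(TPM + 1). The log2(TPM + 1) fit with blocks called PTX4 alone among all genes, so that every other call was lost there. ELANE (0.054, SE 0.054), AZU1 (-0.068, SE 0.056) and SPI1 (-0.059, SE 0.047), the markers with the highest CPM, did not pass. In the other marker lists CD3D, CD3E, CD3G, CD8A, MS4A1, HBB, PF4, EPCAM, KRT19 and COL1A2 were listed at 0 in all 6 libraries. In these lists NKG7, PAX5, CD79B, ITGA2B, KRT8, PDGFRB and COL1A1, among the tested genes with the highest CPM, did not pass in either fit. The sum of the T and NK cell list was 18.9 to 24.3 TPM in PTX4-OE and 25.3 to 27.1 TPM in EV. The B cell list summed to 4.58 to 5.20 TPM in PTX4-OE and 3.21 to 4.68 TPM in EV. For erythroid and megakaryocyte markers the sums were 0.840 to 1.97 TPM in PTX4-OE and 0.980 to 1.92 TPM in EV. Epithelial and fibroblast markers summed to 1.90 to 2.66 TPM in PTX4-OE and 1.48 to 2.53 TPM in EV. Mitochondrially encoded genes held 2.79%, 5.39% and 4.97% of counts in PTX4-OE replicates 1, 2 and 3, against 4.75%, 5.91% and 5.51% in EV replicates 1, 2 and 3, and the part of this in any S100 level was not tested. All 13 mitochondrial mRNAs had a negative log2 fold change with blocks, with a median of -0.32 against 0.0052 over all genes. Of the 13, MT-ND1 was the 1 called, where 0.232% of all genes were called lower. It was lower with blocks (-0.52, SE 0.099, adjusted p = 0.0424 by edgeR), and this call was lost without replicate 2 and on log2(TPM + 1). MT-CO1 (-0.32, SE 0.10), MT-ND4 (-0.45, SE 0.11) and MT-CO3 (-0.15, SE 0.083) did not pass.

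S100A11, S100A4, S100A6 and S100A10 stood far above S100A13 and the calprotectin genes in these cells. On deposited TPM, which is scaled for gene length and so allows levels of different genes to be compared, the order by mean over the 6 libraries was S100A11 (566 TPM), S100A4 (272 TPM), S100A6 (195 TPM), S100A10 (101 TPM), S100A13 (8.02 TPM), S100A9 (6.56 TPM), S100A8 (1.53 TPM) and S100A12 (0.183 TPM). The deposited FPKM values gave the same order, but they differ from TPM only by a constant factor within each library and are no separate check. The order of S100A6 and S100A10 rests on the scaling for length. On CPM, which has no such scaling, S100A10 was the higher in mean. It had 29.4 CPM against 24.0 for S100A6 in PTX4-OE, and 30.9 against 22.0 in EV. Ranges over the 6 libraries did not overlap between S100A11 and S100A4, between S100A6 and S100A10 or between S100A10 and S100A13. They did overlap between S100A4 and S100A6, although S100A4 was the higher in 6 of 6 libraries, and between S100A13 and S100A9, with S100A13 the higher in 4. The ranges of S100A9 and S100A8 also overlapped, with S100A9 the higher in 6 of 6 libraries. Those of S100A8 and S100A12 overlapped too, with S100A8 the higher in 4 of 6.

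**Figure D1:**
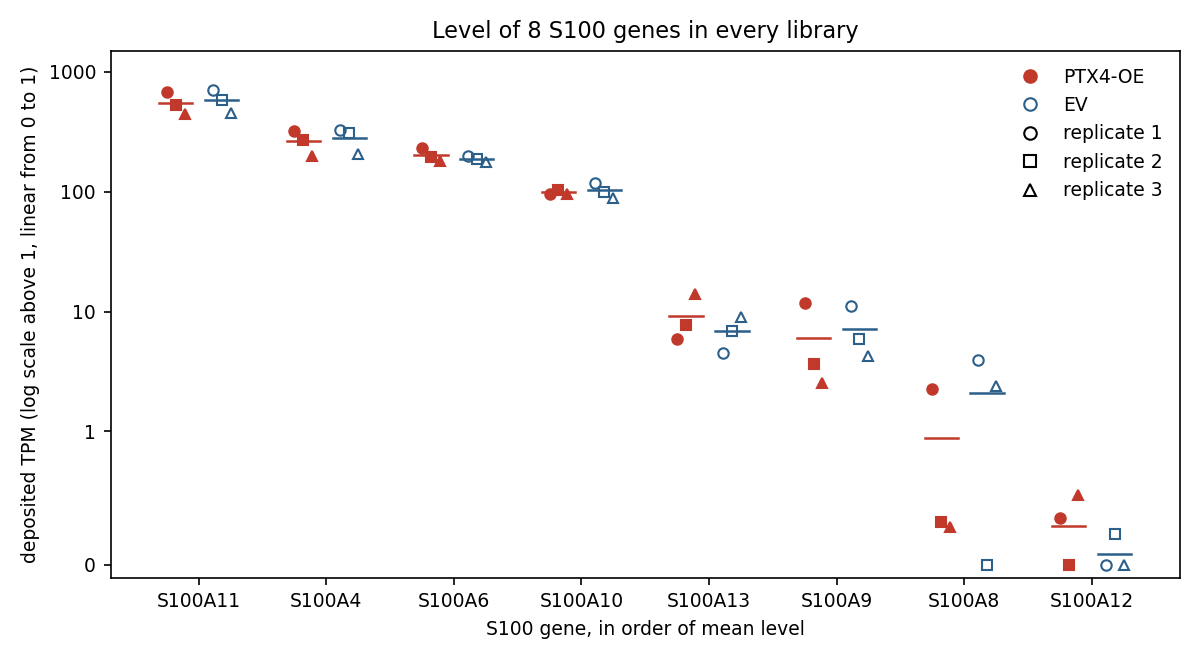
Deposited TPM of the 8 S100 genes, on an axis that is logarithmic above 1 and linear from 0 to 1. Filled points are PTX4-OE and open points EV libraries, the shape gives the replicate number, and the bars are group means of 3 libraries. The groups overlap for every gene, and 4 genes stand above 80 TPM while S100A8 and S100A12 stay under 4 TPM.

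Together the 8 genes held 1349, 1110 and 933 TPM in PTX4-OE replicates 1, 2 and 3, against 1376, 1189 and 939 TPM in EV replicates 1, 2 and 3. This was 0.0933% to 0.135% of all TPM in PTX4-OE and 0.0939% to 0.138% in EV. The mean sum was 1131 ± 209 TPM in PTX4-OE and 1168 ± 219 TPM in EV (SD, n = 3 each). The means differed by less than the SD within either condition, which includes the difference between replicate numbers, and within pairs the sum was lower in PTX4-OE in 3 of 3. S100A11 supplied 47.2% to 50.5% of the sum in PTX4-OE and 48.0% to 51.7% in EV.

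The bases before the annotated start are shown for 4 members, the 3 most abundant and S100A9, the calprotectin gene that could be tested. All 8 members matched the RefSeq promoter table, on GRCh38.p14. Each sequence below is the 250 bases before the start, read 5′ to 3′ on the gene's own strand. S100A11 (chr1:152037005-152037254, minus strand) and S100A6 (chr1:153535992-153536241, minus strand) have matches to the GC box GGGCGG. S100A4 (chr1:153545807-153546056, minus strand) and S100A9 (chr1:153357604-153357853, plus strand) have the TATA box TATAAA close to the start. Capitals mark every match, on either strand, to TATAAA, to GGGCGG, to CCAAT, to the C/EBP form TTGCNNAA, to the AP-1 form TGANTCA, to the PU.1 core GAGGAA or to the E-box CACGTG.
S100A11: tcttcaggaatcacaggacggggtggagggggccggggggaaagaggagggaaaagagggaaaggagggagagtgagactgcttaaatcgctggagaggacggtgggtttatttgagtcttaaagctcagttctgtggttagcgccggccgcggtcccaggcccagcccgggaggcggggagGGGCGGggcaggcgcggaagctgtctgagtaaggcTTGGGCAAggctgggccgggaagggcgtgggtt
S100A6: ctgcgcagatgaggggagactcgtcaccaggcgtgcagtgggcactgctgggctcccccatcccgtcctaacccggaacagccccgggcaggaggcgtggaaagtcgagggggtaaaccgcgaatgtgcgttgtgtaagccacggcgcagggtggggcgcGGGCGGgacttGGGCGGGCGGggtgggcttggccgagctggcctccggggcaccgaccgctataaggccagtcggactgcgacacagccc
S100A4: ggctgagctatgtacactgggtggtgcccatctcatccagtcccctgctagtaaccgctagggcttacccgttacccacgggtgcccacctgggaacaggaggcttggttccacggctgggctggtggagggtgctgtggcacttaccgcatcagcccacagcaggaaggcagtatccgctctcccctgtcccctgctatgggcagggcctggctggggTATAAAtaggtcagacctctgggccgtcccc
S100A9: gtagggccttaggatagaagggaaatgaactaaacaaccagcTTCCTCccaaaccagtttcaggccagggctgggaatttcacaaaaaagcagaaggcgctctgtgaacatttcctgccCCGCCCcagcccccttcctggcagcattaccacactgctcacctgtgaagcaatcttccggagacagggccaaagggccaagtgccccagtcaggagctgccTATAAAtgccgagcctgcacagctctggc

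TATAAA was matched in S100A4 from -31 to -26, counted from the base before the start, and in S100A9 from -29 to -24. S100A12 had it from -8 to -3. S100A8 and S100A13, each with 3 annotated starts, had it from -29 to -24 before their second listed start, and S100A8 also from -126 to -121 before the third of its starts. TATAAA was not matched in the windows of S100A6, S100A10 and S100A11, which each held GGGCGG. S100A9 held GGGCGG as well as TATAAA, from -131 to -126 on the opposite strand. S100A13 held GGGCGG from -138 to -133 before its first listed start, also on the opposite strand. In S100A6 there were 3 matches to GGGCGG between -90 and -70, of which 2 overlap. Over all 35116 windows of the same length, 10.7% held TATAAA and 42.6% held GGGCGG. Matches to CCAAT were in 32% of windows, to TTGCNNAA in 9.05%, to TGANTCA in 6.57%, to GAGGAA in 23.6% and to CACGTG in 6.34%. TTGCNNAA was matched in S100A11 and S100A12, on the opposite strand in both, and GAGGAA in S100A8 and S100A9. The windows of S100A6 and S100A10 each held 24 CpG dinucleotides and that of S100A12 held 1, against a median of 11 over all windows.

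None of the 6 S100 genes that could be tested passed the test between PTX4-OE and EV, with or without pairing by replicate number. S100A8 and S100A12 did not pass the filter on low counts, and the other 6 members did. The test was edgeR's quasi-likelihood test on expected counts, adjusted by Benjamini-Hochberg over the 17640 genes tested, with an adjusted p under 0.05 as the threshold. Without pairing it called 0 of 6 members and 0.00567% of all genes (PTX4 alone). At an unadjusted p under 0.05 it called 0 of 6 members and 0.743% of all genes, 0.238% higher and 0.505% lower in PTX4-OE. With replicate number as a block it called 0 of 6 members and 0.261% of all genes, 0.0283% higher and 0.232% lower in PTX4-OE. At an unadjusted p under 0.05 the blocked fit called 0 of 6 members and 8.8% of all genes, 4.36% higher and 4.44% lower in PTX4-OE. DESeq2 and limma-voom also called 0 members, with and without the block, although DESeq2 with the block gave S100A9 no adjusted p, so that it tested 5 of the 6. Without the block limma-voom called 0 of all genes, and so did not call PTX4 either. CPM, the expected count scaled to the normalised library size, overlapped between the conditions for all 6, while 4.11% of all genes had groups that did not overlap. The median log2 fold change of the 6 was -0.074 without blocks and -0.073 with them, against 0.0077 and 0.0052 over all genes tested. Levels in bulk RNA cannot tell fewer cells with a transcript from less transcript per cell.

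S100A11 (ENSG00000163191.6, chromosome 1, 152032506 to 152047907, minus strand), which binds annexin A1 and takes part in membrane repair, was the most abundant member. It had 150, 117 and 90.2 CPM in PTX4-OE replicates 1, 2 and 3, against 157, 124 and 96.6 CPM in EV replicates 1, 2 and 3. Both replicate 1 libraries were high and both replicate 3 libraries low, and the conditions overlapped. The log2 fold change of PTX4-OE over EV was -0.078 (SE 0.23, adjusted p = 1.00 by edgeR, 95% interval -0.63 to 0.47). With blocks it was -0.081 (SE 0.046, adjusted p = 0.662 by edgeR, 95% interval -0.18 to 0.017). The paired interval therefore holds changes of either sign, none as large as a log2 value of 0.2. By pair it was -0.063, -0.081 and -0.10, lower in 3 of 3 pairs.

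S100A4 (ENSG00000196154.12, chromosome 1, 153543613 to 153550136, minus strand) binds non-muscle myosin IIA and is known for its part in cell motility. Its level was 57.8, 49.5 and 33.7 CPM in PTX4-OE replicates 1, 2 and 3, against 59.4, 53.0 and 36.4 CPM in EV replicates 1, 2 and 3. As for S100A11, both replicate 3 libraries were lowest, as for 28.2% of all genes, and each PTX4-OE library lay just under its EV partner. The log2 fold change was -0.077 (SE 0.25, adjusted p = 1.00 by edgeR), and with blocks -0.081 (SE 0.053, adjusted p = 0.717 by edgeR, 95% interval -0.19 to 0.032). S100A4 and S100A11 were the 2 of 6 members lower in every pair, a pattern that 14.1% of all tested genes had. No tested member was higher in every pair, where 16.3% of all genes were.

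S100A6 (ENSG00000197956.10, chromosome 1, 153534599 to 153536244, minus strand), or calcyclin, binds the ubiquitin ligase adaptor CACYBP. It stood at 28.0, 23.7 and 20.2 CPM in PTX4-OE replicates 1, 2 and 3, against 23.9, 20.5 and 21.4 CPM in EV replicates 1, 2 and 3. PTX4-OE replicate 1 was the highest library, and the 3 EV libraries lay within the PTX4-OE range. The log2 fold change was 0.13 (SE 0.14, adjusted p = 1.00 by edgeR), and with blocks 0.12 (SE 0.073, adjusted p = 0.700 by edgeR, 95% interval -0.038 to 0.27). It was higher in 2 of 3 pairs.

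S100A10 (ENSG00000197747.9, chromosome 1, 151982915 to 151993859, minus strand), or p11, has lost calcium binding and forms a tetramer with annexin A2 that binds plasminogen at the cell surface. It had 29.2, 31.7 and 27.3 CPM in PTX4-OE replicates 1, 2 and 3, against 36.4, 29.9 and 26.4 CPM in EV replicates 1, 2 and 3. EV replicate 1 was the highest library and the other 5 lay close together. The log2 fold change was -0.072 (SE 0.14, adjusted p = 1.00 by edgeR), and with blocks -0.065 (SE 0.075, adjusted p = 0.863 by edgeR, 95% interval -0.23 to 0.096).

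S100A13 (ENSG00000189171.16, chromosome 1, 153618787 to 153631360, minus strand) takes part in the release of FGF1 and interleukin-1 alpha, which leave the cell without a signal peptide. It had 2.75, 4.56 and 7.53 CPM in PTX4-OE replicates 1, 2 and 3, against 2.94, 3.99 and 6.47 CPM in EV replicates 1, 2 and 3. Here both replicate 3 libraries were the highest, as for 27.8% of all genes, and both replicate 1 libraries the lowest. The log2 fold change was 0.15 (SE 0.42, adjusted p = 1.00 by edgeR), and with blocks 0.12 (SE 0.14, adjusted p = 0.851 by edgeR, 95% interval -0.17 to 0.41). S100A13 was the only member with expected counts that were not whole. Its gene overlaps S100A1 on the opposite strand over 3435 bases, and S100A1 itself had 1 to 9 expected counts per library. S100A4, S100A6 and S100A11, with whole counts, also overlap annotated genes, S100A4 over 1930 bases of S100A3 on the same strand. The part of overlap in the counts was not tested.

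The calprotectin genes were few in counts. S100A9 (ENSG00000163220.11, chromosome 1, 153357854 to 153361023, plus strand) had 97, 26 and 21 expected counts in PTX4-OE replicates 1, 2 and 3, against 81, 38 and 32 in EV replicates 1, 2 and 3. This was 2.70, 0.834 and 0.538 CPM in PTX4-OE, against 2.56, 1.29 and 0.945 CPM in EV. Both replicate 1 libraries stood above the other 4, as they did for 27.4% of all genes. The log2 fold change was -0.24 (SE 0.66, adjusted p = 1.00 by edgeR), and with blocks -0.37 (SE 0.27, adjusted p = 0.756 by edgeR, 95% interval -0.94 to 0.20). By pair it was 0.075, -0.63 and -0.81, so that the pairs did not share a direction. S100A9 ranked from 7178 to 12409 among all genes by TPM in PTX4-OE and from 7304 to 10832 in EV, while S100A11 ranked from 192 to 234 in PTX4-OE and from 176 to 226 in EV.

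S100A8 (ENSG00000143546.10, chromosome 1, 153390032 to 153391073, minus strand) had 8, 1 and 1 expected counts in PTX4-OE replicates 1, 2 and 3, against 12, 0 and 8 in EV replicates 1, 2 and 3. The conditions overlapped, and 3 of the 6 libraries were at or under a floor of 3 counts per library. The ratio of summed counts, PTX4-OE over EV and scaled for library size, was 0.447 (10 against 20 counts). Its 95% bounds, by the exact binomial method and for counting error alone, were 0.187 and 0.9999, and they leave out the spread between libraries. Fitted with no filter on low counts, S100A8 had a log2 fold change of -1.11 (SE 1.07, adjusted p = 1.00 by edgeR), and a difference was not detectable at this depth. S100A12 (ENSG00000163221.9, chromosome 1, 153373711 to 153375621, minus strand) had 2, 0 and 3 counts in PTX4-OE and 0, 1 and 0 in EV replicates 1, 2 and 3, so that every library was at or under the floor and no fold is given.

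**Figure D2:**
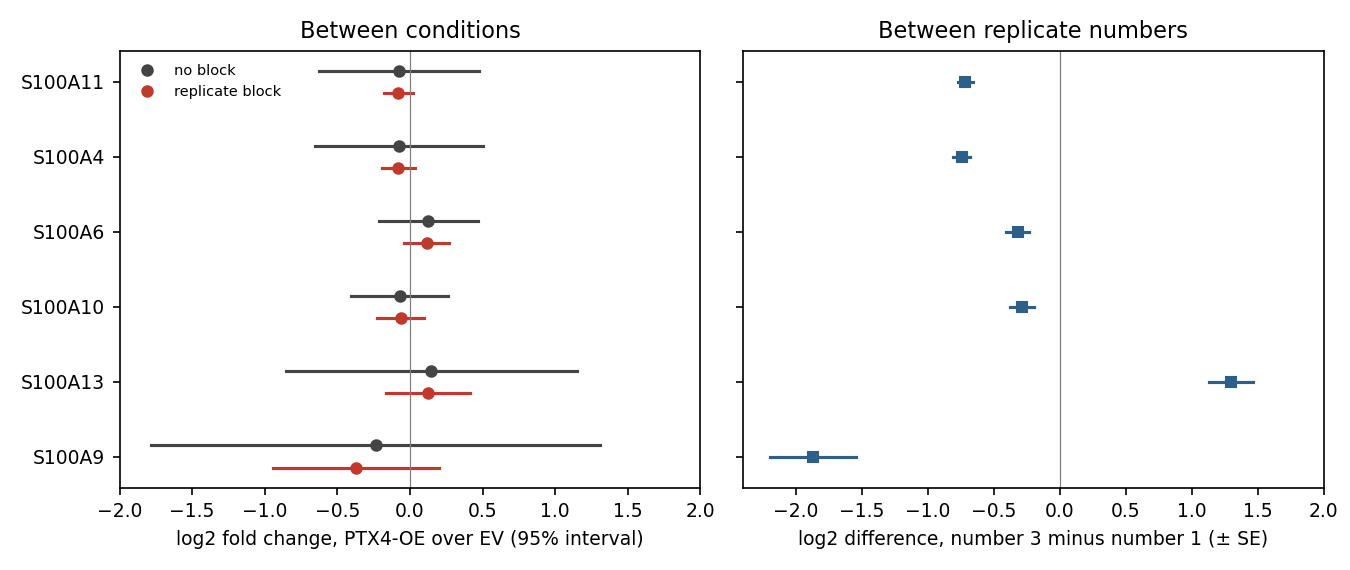
Log2 fold change of PTX4-OE over EV with its 95% interval in the fits without and with the replicate block (left), and log2 difference of replicate number 3 minus number 1 with its standard error (right), for the 6 tested S100 genes. All 12 intervals on the left include 0, while on the right S100A9 lies at -1.87 and S100A13 at 1.30.

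The S100 levels differed by replicate number, with condition kept in the model. Same-numbered libraries deviated together over all genes, with correlations of 0.632, 0.131 and 0.698 for numbers 1, 2 and 3, although the labels do not say what a number shares. The value for number 2 was close to the 0.1165 of PTX4-OE replicate 1 with EV replicate 2. Replicate number was then tested across all genes, a test chosen after the values were seen. It called 6 of 6 tested members, where it called 51.5% of all genes, so that a call of this kind is common and not particular to S100 genes. The adjusted p, by edgeR over all genes, was 3.56e-07 for S100A11, 8.03e-07 for S100A4, 3.24e-05 for S100A13, 3.54e-04 for S100A9, 0.0164 for S100A6 and 0.0435 for S100A10. The smaller effects were the less stable. S100A6 was no longer called without PTX4-OE replicate 1 or PTX4-OE replicate 3. S100A10 was no longer called without PTX4-OE replicate 2, EV replicate 1 or EV replicate 3, and DESeq2 called neither gene. These fits also called fewer of all genes, 38.4% to 48.5% against 51.5%.

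In number 3 against number 1, 5 members were lower and S100A13 was higher. All 6 passed, against 54.5% of all tested genes, of which the share called lower was 28.7% and the share called higher 25.8% of all genes. S100A9 had the largest of these log2 differences, -1.87 (SE 0.33, adjusted p = 1.76e-04 by edgeR). S100A4 was at -0.74 (SE 0.065) and S100A11 at -0.72 (SE 0.057), while S100A6 was at -0.32 (SE 0.088) and S100A10 at -0.28 (SE 0.092). S100A13 was at 1.30 (SE 0.17, adjusted p = 9.21e-06 by edgeR). Against number 1, where 21.2% of all genes were called (12.8% lower and 8.4% higher in number 2), number 2 was called lower for S100A9 (-1.34), S100A11 (-0.35) and S100A4 (-0.19) and higher for S100A13 (0.59), and S100A6 (-0.23) and S100A10 (-0.084) did not pass. For number 3 against number 2, where 32.8% of all genes were called (18.6% lower and 14.1% higher in number 3), S100A4 (-0.55) and S100A11 (-0.37) were called lower and S100A13 (0.71) higher, and S100A6 (-0.086), S100A9 (-0.53) and S100A10 (-0.20) did not pass.

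The share of a gene's variation on the log2 CPM scale (sum of squares) that went with replicate number was 98.1% for S100A4, 98.0% for S100A11 and 97.3% for S100A13, 88.1% for S100A9, 68.0% for S100A6 and 60.3% for S100A10. The median over all tested genes was 79.8%. The share that went with condition was 1.90% for S100A11, 1.68% for S100A4 and 0.990% for S100A13, against 4.10% for S100A10, 6.97% for S100A9 and 12.9% for S100A6, and the median over all genes was 4.38%. From its lowest to its highest library S100A9 spanned 5.02-fold in CPM, S100A13 2.73-fold, S100A4 1.76-fold and S100A11 1.74-fold, while S100A6 and S100A10 spanned 1.39-fold and 1.38-fold. S100A4 and S100A11 had the most similar profiles of any pair of tested members, with a root mean square difference of 0.080 between their log2(CPM + 0.5) values, each centred on its mean over 6 libraries. S100A9 and S100A13 were the least similar pair, at 1.07. S100A10 and S100A11, which neighbour each other on the chromosome, were at 0.204.

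**Figure D3:**
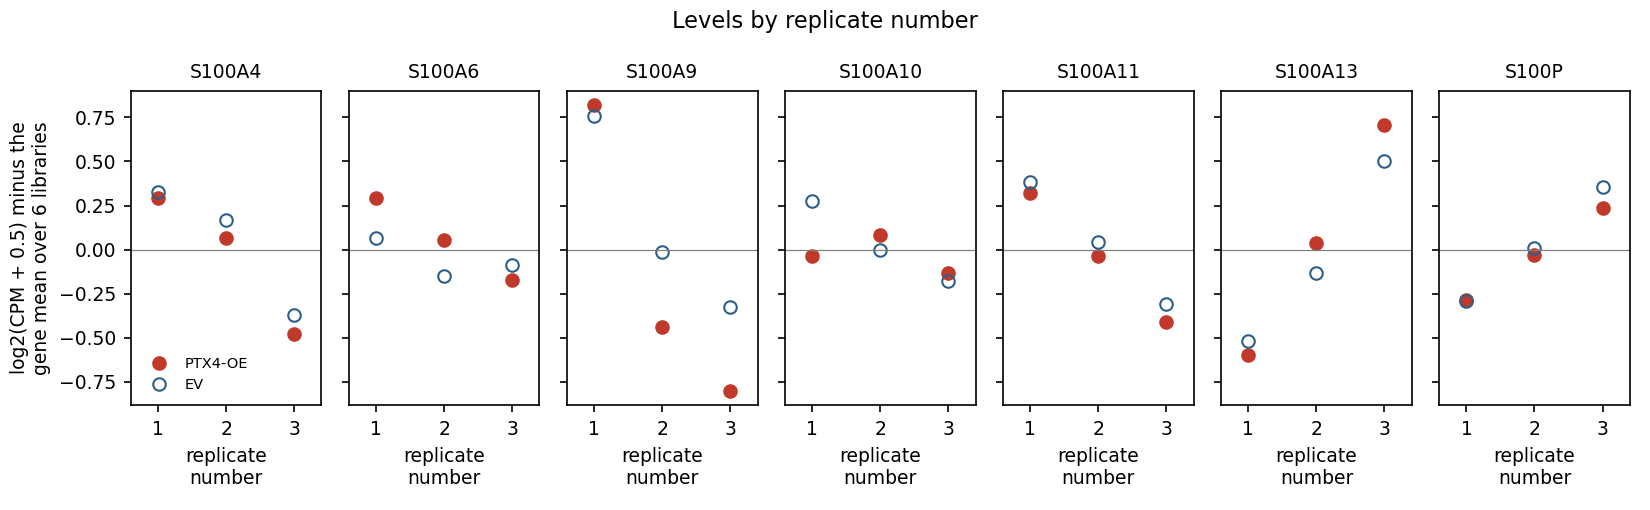
Log2(CPM + 0.5) of the 6 tested S100 genes and of S100P, minus the gene's mean over the 6 libraries, by replicate number. Filled points are PTX4-OE and open points EV libraries. Points of the same number lie close together for S100A4, S100A11, S100A13 and S100P, and S100A13 and S100P are highest in number 3 while S100A4 and S100A11 are highest in number 1.

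The deposited TPM added a length effect of its own. A gene's expected count, its FPKM and the library total together give the length by which it was divided. That length was 278 to 282 bases in PTX4-OE and 261 to 284 bases in EV for S100A11, and 153 to 156 bases in PTX4-OE and 136 to 159 bases in EV for S100A6. The lowest was EV replicate 2 for both, so its TPM of these short transcripts was raised relative to CPM. For S100A13, which has several annotated starts, the length was 592, 754 and 731 bases in PTX4-OE replicates 1, 2 and 3, against 823, 710 and 945 bases in EV replicates 1, 2 and 3. Accordingly S100A13 had 5.92, 7.72 and 14.02 TPM in PTX4-OE, against 4.47, 6.90 and 9.07 TPM in EV. The ratio of means was thus larger in TPM than in CPM. On log2(TPM + 1) with blocks S100A13 was still not called, in a fit that called PTX4 alone among all genes.

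Of the 12 other S100 genes looked up, S100P alone passed the filter. S100P (ENSG00000163993.7, chromosome 4, 6693878 to 6697170, plus strand), which binds the RAGE receptor and ezrin, lies outside the chromosome 1 cluster. It had 12.5, 14.96 and 18.1 CPM in PTX4-OE replicates 1, 2 and 3, against 12.4, 15.4 and 19.7 CPM in EV replicates 1, 2 and 3. Its log2 fold change was -0.062 (SE 0.21, adjusted p = 1.00 by edgeR), and with blocks -0.057 (SE 0.075, adjusted p = 0.884 by edgeR). In number 3 against number 1 it was higher by 0.60 (SE 0.091), the direction of S100A13. At 106 ± 24.4 TPM in PTX4-OE and 111 ± 25.7 TPM in EV (SD, n = 3 each), its level was near that of S100A10. S100A7, S100A7A, S100G and S100Z were listed at 0 in every library, and S100A1, S100A2, S100A3, S100A5, S100A14, S100A16 and S100B had at most 9 counts in any library.

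The gene most like S100A9 in profile was LYZ. Among 9901 genes with a mean of 10 CPM or more, other than members, LYZ, which encodes this antibacterial enzyme of monocytes, had the smallest root mean square difference from S100A9 in centred log2(CPM + 0.5) over the 6 libraries, 0.102. It had 61.5, 23.2 and 16.9 CPM in PTX4-OE replicates 1, 2 and 3, against 48.2, 28.6 and 26.2 CPM in EV replicates 1, 2 and 3. Next were ANXA1, which encodes annexin A1, at 0.216, and TREM2, a lipid-sensing receptor of macrophages, at 0.221. The added 0.5 compresses the differences of S100A9 itself, whose own root mean square deviation on this scale was 0.605. For S100A8 the nearest genes were TYMP, a thymidine phosphorylase (0.156), HPSE, which encodes heparanase (0.166), and TNFRSF1B, a TNF receptor (0.170). Its own deviation was 0.305, which is also its distance from a flat profile, and it rests on at most 12 counts in any library.

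**Figure D4:**
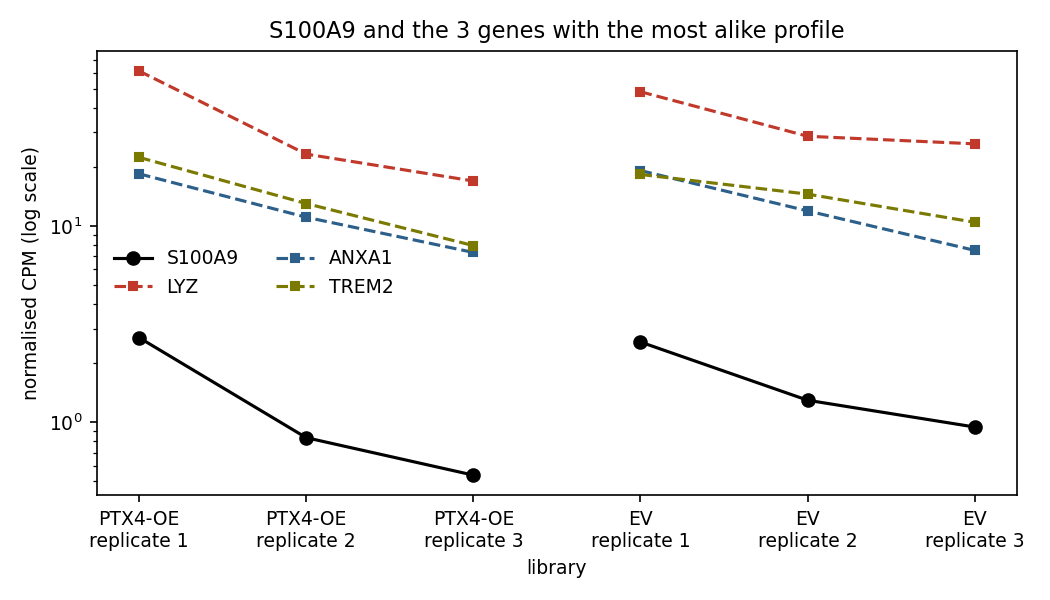
Normalised CPM, on a log axis, of S100A9 and of the 3 genes most alike in profile, LYZ, ANXA1 and TREM2, in each library. Lines join libraries of the same condition. All 4 genes were highest in the replicate 1 library of each condition and lowest in the replicate 3 library.

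Most listed binding partners of S100 proteins passed the filter on low counts, and none of these passed the test between conditions either. Of 13 listed genes, annexins and the scaffold AHNAK together, 11 were tested. Of these 0 were called with or without blocks, and their median log2 fold change with blocks was -0.0061. ANXA2, the partner of S100A10, was named for that role and outside the rule. It had 163, 114 and 81.5 CPM in PTX4-OE replicates 1, 2 and 3, against 153, 119 and 84.2 CPM in EV replicates 1, 2 and 3. Its log2 fold change with blocks was -0.0061 (SE 0.050), and in number 3 against number 1 it was lower, at -0.93 (SE 0.061). AHNAK (0.016, SE 0.050), ANXA6 (-0.088, SE 0.048) and ANXA11 (0.028, SE 0.049) had the highest CPM of the list, which is not scaled for length, and did not pass. By replicate number 8 of the 11 were called, against 51.5% of all genes.

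Receptors for S100 proteins outside the cell were tested for 9 of 10 genes, with 0 called between conditions and a median log2 fold change with blocks of 0.037. BSG, or basigin, a receptor for S100A9, had 364 ± 67.2 CPM in PTX4-OE and 351 ± 59.9 CPM in EV (SD, n = 3 each), with a log2 fold change with blocks of 0.054 (SE 0.050). NPTN (0.0047, SE 0.053) and ALCAM (-0.014, SE 0.047) followed in CPM, with no scaling for length, and did not pass. Of 18 targets inside the cell 15 were tested and 0 were called, with a median of -0.0091. FGF1, IL1A and PLAT did not pass the filter on low counts. MYH9, the myosin heavy chain that S100A4 binds, had 1115 ± 127 CPM in PTX4-OE and 1040 ± 61.6 CPM in EV (SD, n = 3 each), with a log2 fold change with blocks of 0.096 (SE 0.058). STIP1, a co-chaperone, was at 0.013 (SE 0.048) and IQGAP1, an actin scaffold, at 0.052 (SE 0.049). By replicate number 5 of the 9 receptors and 11 of the 15 targets were called, where 51.5% of all genes were, so that the receptors lay near that share.

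Transcription factors that act on S100 genes in myeloid cells were tested for 12 of 13 genes, with 0 called between conditions and a median of 0.011 with blocks. MYB had 638 ± 121 CPM in PTX4-OE and 603 ± 130 CPM in EV, IRF8 574 ± 113 CPM in PTX4-OE and 605 ± 123 CPM in EV, and MYC 310 ± 76.5 CPM in PTX4-OE and 309 ± 57.5 CPM in EV (SD, n = 3 each). Their log2 fold changes with blocks were 0.087 (SE 0.052), -0.076 (SE 0.052) and -0.0073 (SE 0.053). Number 3 was higher than number 1 for MYB (0.51) and lower for IRF8 (-0.58) and MYC (-0.62).

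Genes that accompany S100A8 and S100A9 in blood monocytes and neutrophils were the list nearest in kind, and 2 of its 10 tested genes, MNDA and CSF3R, fell with blocks, where 0.232% of all genes did. The list was chosen with earlier results of these data known, so its share is not independent of them. Both calls were lost on log2(TPM + 1) with blocks, with an adjusted p by limma of 0.336 for MNDA and 0.443 for CSF3R. That fit called PTX4 alone among all genes, and each of the genes was called in 8 of 9 fits with blocks. The list had 0 called without blocks, and its median log2 fold change was -0.18 in both fits, against 0.0052 over all genes with blocks. With blocks MNDA, a nuclear protein of myeloid cells, was at -0.52 (SE 0.062, adjusted p = 0.0012 by edgeR) and CSF3R, the receptor for G-CSF, at -0.37 (SE 0.056, adjusted p = 0.0090 by edgeR). LYZ (-0.15, SE 0.12), VCAN (-0.029, SE 0.059) and CTSS (-0.0059, SE 0.047) did not pass. In number 3 against number 1, LYZ was at -1.38, MNDA at -0.61 and VCAN at -0.35, all lower as S100A9 was, and CSF3R was higher, at 1.22. The other 10 genes of the list, which include the neutrophil granule genes LTF, CAMP, LCN2 and MMP8, did not pass the filter.

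Other genes of EF-hand proteins gave 1 call among 28 tested, and with blocks only, where 0.261% of all genes were called. It was AIF1, a calcium-binding protein of macrophages, which fell (-0.60, SE 0.11, adjusted p = 0.0305 by edgeR) and was not called with blocks without replicate 2 or on log2(TPM + 1). This list too was chosen with earlier results of these data known. LCP1, the leukocyte plastin (-0.14, SE 0.057), ACTN1 (0.065, SE 0.053) and CALM2, a calmodulin gene (-0.078, SE 0.050), had the highest CPM, with no scaling for length, and did not pass. In number 3 against number 1, 20 of the 28 were called lower and 1 higher, where 28.7% of all genes were lower and 25.8% higher.

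Of 75 genes other than S100 genes whose start lies within 300 kb of a member, 12 were tested and 0 were called between conditions, with a median log2 fold change with blocks of 0.024. ILF2 (-0.017, SE 0.052), INTS3 (0.063, SE 0.046) and CHTOP (0.0017, SE 0.046) had the highest CPM, with no scaling for length. By replicate number they went both ways: in number 3 against number 1, ILF2 (-0.56) and CHTOP (-0.23) were lower and INTS3 (0.43) was higher.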

How the data were processed

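RNA with poly(A) tails was measured in 6 THP-1 libraries, 3 per condition. The authors deposited expected counts, TPM and FPKM per Ensembl gene. The expected counts were made, per the submitters' processing notes, with FastQC 0.11.5, STAR and featureCounts on GRCh38, and were deposited without normalization. Of the expected counts, 7.94% are not whole, for a reason not stated in the labels. The authors' TPM is scaled for gene length and to the same total in each library, and the deposited FPKM for gene length and depth. No strand setting or annotation release is given in the sources used here. Genes were matched by identifier without version to GENCODE release 44, whose version of S100A13 differs.

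Expected counts were rounded and tested with edgeR 4.0.16 (R 4.3.3), filterByExpr, TMM and the quasi-likelihood F test, with Benjamini-Hochberg adjustment. Each standard error is the fold change divided by the root of its F statistic. Alternatives used DESeq2 1.42.0 and limma 3.58.1 (limma-voom, and limma on log2(TPM + 1) and log2(TPM + 0.1)). The edgeR code was tested on simulated data with a spread near that of the blocked fit and no difference between replicate numbers. That simulation therefore does not show what the fit without blocks could detect in these libraries. The design had no block. Same-numbered libraries had correlated deviations from their group means (0.632, 0.131 and 0.698, all above the limit of 0.1), so the numbers were taken to pair libraries and the blocked fit is given too. PTX4-OE replicate 1 with EV replicate 2 was also above this limit, at 0.1165, so the pairing of number 2 is weakly marked. The other differently numbered pairs had negative correlations. Members and gene lists were chosen with earlier results of these data known. Genes named are all members, other S100 genes past the filter, and in each list those past the threshold in either fit and the 3 others with the highest mean CPM, of which 1 is not reported here. Most alike genes were named by the smallest root mean square difference in profile. Summaries used Python 3.11.15 with pandas 2.3.3. Depth ran from 29670641 to 37718207 expected counts, and intervals on counts cover counting error only.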

Additional observations from a re-analysis of the deposited data

How the results depend on the processing

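The call of 0 S100 members held in all 23 alternatives. Fits without the block called at most 3 genes each, so that a call of 0 members says little there. The count of all genes called, 1 in the main fit, was 3 with DESeq2, 0 with limma-voom (which did not call PTX4), 2 with no filter on low counts, 3 on log2(TPM + 0.1) and 0 with mitochondrial genes and PTX4 left out. With the replicate block it was 46, with the block and DESeq2 38, with the block and limma-voom 66, with the block and no filter 298, and with the block and without mitochondrial genes and PTX4 43, but on log2(TPM + 1) with the block it was 1 (PTX4), with 0 lower. With the block and 1 replicate number left out it was 80, 30 and 208 without replicates 1, 2 and 3. The fits with the block and no filter, and with the block and without mitochondrial genes and PTX4, were chosen after the data were seen. So were all alternatives for the test of replicate number.

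In fits without the block, which lose the balance of replicate numbers when 1 library is left out, several signs turned. Without PTX4-OE replicate 3 and without EV replicate 1 the log2 fold change of S100A4 was 0.11 and 0.062, of S100A9 0.14 and 0.26, of S100A11 0.080 and 0.10, and of S100A13 -0.30 and -0.084, each opposite in sign to the value with all libraries. That of S100A10 was 0.055 without EV replicate 1 and 0.068 with the block and without replicate 1. With 1 library left out the lowest values were -0.26 for S100A4, -1.21 for S100A9, -0.17 for S100A10 and -0.27 for S100A11, and the highest for S100A13 was 0.52. Over the alternatives S100A6 ran from 0.0085 to 0.23, all positive. With blocks S100A11 ran from -0.088 to -0.075, S100A4 from -0.10 to -0.071, S100A6 from 0.060 to 0.20, S100A9 from -0.71 to -0.22 and S100A13 from 0.045 to 0.35, and none of these 5 turned sign. The cause was not tested. Members called by replicate number were 4 to 6 of 6 over 10 alternatives, which called 27.7% to 52.5% of all genes tested. The 4 were with DESeq2, which called 38.4% of all genes. Depth limits S100A8 and S100A12, which had at most 12 counts in any library.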
